A study of Mus musculus with 10 samples.

Results

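This account follows miR-126 in mouse liver, through the 2 rows of a table of 285 mature miRNAs that are named for its arms, miR-126-3p and miR-126-5p. Small RNA was sequenced in 10 liver libraries from mice at 14 weeks of age, 5 of the control genotype and 5 of the genotype labelled TSC1 mutant. The mutants are called L-Tsc1KO in the treatment note and the controls are described there as littermates. Tsc1 encodes a subunit of the TSC complex, which restrains the growth kinase complex mTORC1. The promoter or cell type that drives the deletion is not given in the sources used here, and neither is the sex of the animals. The knockout itself could not be checked from these miRNA libraries, because Tsc1 messenger RNA was not analysed here. The labels do not say that each library came from a separate animal, so p-values measure the spread between these libraries.

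The miRNA miR-126 is made in endothelial cells, the lining of blood vessels, and is widely used as their marker. Its hairpin is cut from an intron of Egfl7, a gene for a secreted protein of the vessel wall. The 3p arm is known to repress Spred1 and Pik3r2, which restrain signalling downstream of VEGF, and the adhesion molecule Vcam1. The 5p arm is also active, and is known to repress Dlk1 in endothelial cells. A difference in either arm in whole liver can come, for example, from the number of endothelial cells or the amount of RNA in each. These cannot be told apart in bulk tissue.

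The mature 3p arm is shown because its seed, bases 2 to 8, sets which messages it can pair with. The hairpin is shown because the comparison of arms below rests on 2 products of this molecule. Both sequences are from RefSeq on GRCm38.p6, 5′ to 3′. Capitals mark the seed in the mature sequence and the 3p arm in the hairpin.
miR-126-3p: uCGUACCGugaguaauaaugcg
miR-126 hairpin: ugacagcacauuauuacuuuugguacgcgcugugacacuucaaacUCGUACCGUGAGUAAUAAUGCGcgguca

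The table's name miR-126-3p was matched to the RefSeq entry mmu-miR-126a-3p, at chr2:26591402-26591423 on the plus strand. Among 1738 mature mouse entries of RefSeq, 0 others share the seed CGUACCG. The hairpin, Mir126a, has 73 bases at chr2:26591357-26591429, and the 3p arm takes its bases 46 to 67. In the fold predicted by RNAfold, at -31.2 kcal/mol, 19 of the 22 bases of the 3p arm were paired, with partners between hairpin bases 7 and 27 on the 5′ side, from which the 5p arm is cut. In the GENCODE M21 annotation of GRCm38 the hairpin lies in Egfl7 (ENSMUSG00000026921.18, chr2:26580014-26593120, plus strand), which has 19 transcripts. It is intronic in 8 of them, exonic in 1 and outside the other 10. In Egfl7-201 it lies between exons 7 and 8, in an intron of 600 bases. It also overlaps the gene model Gm20532. On the opposite strand the hairpin of Mir126b overlaps it by 58 bases. Whether the authors counted reads by strand is not given in the sources used here, so reads of the antisense hairpin could not be separated from those of miR-126.

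Values are normalised reads, that is reads per miRNA scaled by the authors with 1 factor per library. The libraries held between 6228497 and 12129069 reads of listed miRNAs, and the arms of miR-126 were counted at 87709 to 199488 reads (3p) and 7468 to 22371 reads (5p) per library. Reads were recovered by dividing each library by the step of its values and are estimates, since too few low values are listed per library for a stricter check of that step. The binomial intervals below rest on them. The liver label was checked against the hepatocyte miRNA miR-122, which exceeded miR-126-3p in all 10 libraries, since miR-126-3p stood at 0.0372 to 0.0546 reads per read of miR-122. Control replicate 1 and TSC1 mutant replicate 1 stood apart from the rest in many miRNAs, with deviations from their group means that correlated at 0.81 across miRNAs, so the differences between genotypes in miR-126 are also given without them. Values of biliary epithelial and striated muscle miRNAs were highest in control replicate 2, with sums of 35789 and 5638 normalised reads against group means of 11642 and 1464. In normalised reads, miR-126-3p of that library lay among the values of control replicates 3 to 5. Its miR-126-5p value, 10376 normalised reads, was the lowest of the 10 libraries. That library also had the most 3p reads per 5p read, 13.7, and the highest 3p share of listed miRNA reads, 1.64%.

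No difference between the genotypes beyond the spread between libraries was detected in either arm of miR-126. The 3p arm was one of the most abundant miRNAs of these livers and the 5p arm was the minor one in every library. Within the controls, replicate 1 had the lowest 3p value and the highest 5p value of all 10 libraries.

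Expression of miR-126-3p in control replicates 1 to 5 was 95159, 141837, 140172, 147555 and 139192 normalised reads. In TSC1 mutant replicates 1 to 5 it was 103352, 129018, 129623, 148670 and 139324 normalised reads. Replicate 1 was the lowest of each group, the other 8 libraries lay between 129018 and 148670, and the groups overlapped. The means were 132783 ± 21281 for controls and 129998 ± 16932 for mutants (SD over 5 libraries each). The log2 fold change was -0.02 ± 0.15 (SE), and limma gave a 95% interval from -0.35 to 0.30 and an adjusted p of 0.961. Without control replicate 1 the fold change was -0.14 (limma adjusted p = 0.413), and without both replicates 1 it was -0.059 (limma adjusted p = 0.621). Fold changes here and below are of TSC1 mutant over control, on the scale of log2(normalised reads + 1), and limma p-values are adjusted by the Benjamini-Hochberg method over all 285 miRNAs.

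Expression of miR-126-5p in control replicates 1 to 5 was 17877, 10376, 10986, 12564 and 12235 normalised reads. In TSC1 mutant replicates 1 to 5 it was 11540, 12065, 12801, 11583 and 11262 normalised reads. Control replicate 1 was above all other libraries, while the mutants lay close together and inside the range of the controls. The means were 12807 ± 2971 for controls and 11850 ± 605 for mutants (SD over 5 libraries each). The log2 fold change was -0.09 ± 0.15 (SE), and limma gave a 95% interval from -0.41 to 0.24 and an adjusted p of 0.851. The fold change was 0.041 without control replicate 1 (limma adjusted p = 0.765), and without both replicates 1 it was 0.050 (limma adjusted p = 0.721).

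**Figure D1:**
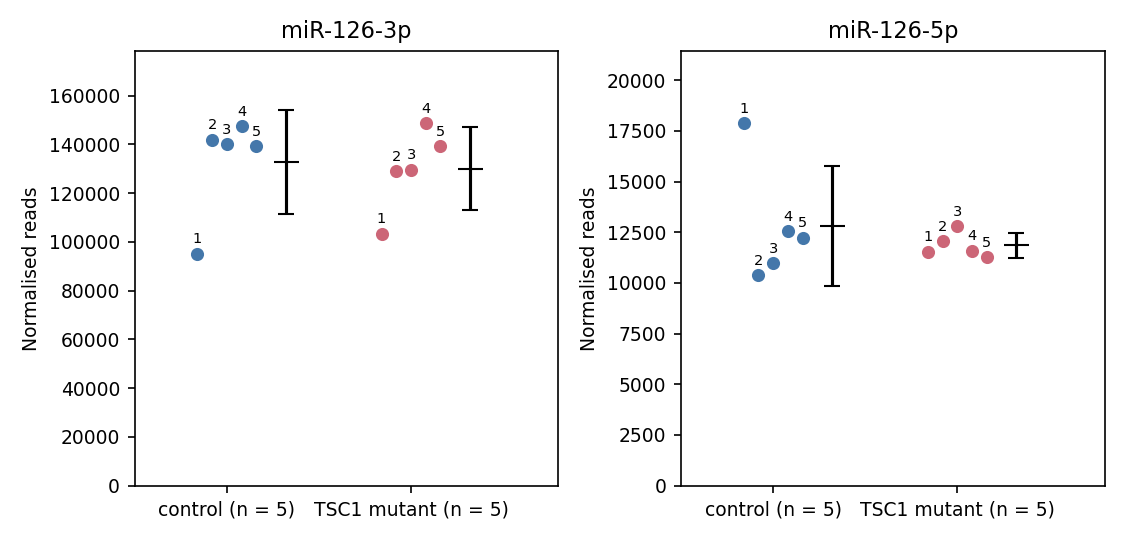
Normalised reads (vertical axes, from 0) of miR-126-3p and miR-126-5p in each library of the control and TSC1 mutant groups, with points for libraries and bars for the mean ± SD of 5. The groups overlap in both arms, and control replicate 1 is the lowest library for 3p at 95159 and the highest for 5p at 17877.

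At a limma adjusted p of 0.05, 31 miRNAs rose and 6 fell in mutants, which is 37 of 285 or 13.0%, and the arms of miR-126 were not among them. The groups did not overlap in 36 miRNAs, or 12.6%, and overlapped in both arms. Ordered from the smallest absolute log2 fold change, miR-126-3p was 19th and miR-126-5p was 64th of 285, where the median absolute value was 0.27. The median log2 fold change of all miRNAs was -0.06, so both arms lay near the middle of the table.

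Among the 184 miRNAs that averaged 100 normalised reads or more, the within-group SD on the log2 scale was 0.23 for miR-126-3p and 0.22 for miR-126-5p, against a median of 0.38. These were the 44th and 41st smallest. Control replicate 1 lay at -0.46 from its group mean for 3p and at 0.51 for 5p on the log2 scale. In TSC1 mutant replicate 1 the deviations were -0.32 for 3p and -0.04 for 5p.

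A share of the reads within a library does not depend on the scaling between libraries. The 3p arm made up 1.12, 1.64, 1.36, 1.41 and 1.43% of listed miRNA reads in control replicates 1 to 5. In mutant replicates 1 to 5 it made up 1.13, 1.39, 1.43, 1.60 and 1.49%. The lowest of these shares, in control replicate 1, had a 95% exact binomial interval from 1.11 to 1.12%, which covers counting error only. Means were 1.39 ± 0.189% and 1.41 ± 0.174% (SD over 5 libraries each), a difference of 0.0199 percentage points with a 2-sided exact permutation p of 0.825. Without control replicate 1 the difference was -0.0487 (exact permutation p = 0.706), and without both replicates 1 it was 0.0212 (exact permutation p = 0.771).

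For the 5p arm the shares were 0.210, 0.120, 0.106, 0.120 and 0.125% in control replicates 1 to 5. They were 0.126, 0.130, 0.142, 0.124 and 0.121% in mutant replicates 1 to 5. Only control replicate 1 was far from the others. Its 95% exact binomial interval ran from 0.207 to 0.212%. The means were 0.136 ± 0.0416% and 0.129 ± 0.00799% (SD over 5 libraries each), a difference of -0.00759 percentage points with an exact permutation p of 0.968. Without control replicate 1 the difference changed sign, to 0.0107 percentage points (exact permutation p = 0.0635, and 0.333 adjusted over the 7 tests). Without both replicates 1 it was 0.0113 (exact permutation p = 0.143, and 0.467 adjusted). The tests on shares are 2 of 7 exact tests made on single values. The smallest possible p of these 7 is 0.00794 with all libraries and 0.0286 without both replicates 1. Adjusted over the 7 by the Benjamini-Hochberg method, the p of both was 0.968 with all libraries.

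In the order of mean normalised reads over all libraries, miR-126-3p was 15th and miR-126-5p was 42nd of 285. Within single libraries the 3p arm ranked from 12th to 16th and the 5p arm from 33rd to 47th. The neighbours of miR-126-3p were miR-194, a hepatocyte and gut epithelial miRNA, at 165057, miR-378, from an intron of Ppargc1b, at 137745, miR-22 at 117381 and miR-26a at 116181 normalised reads. The value of miR-194 was above that of miR-126-3p in 9 libraries, and that of miR-26a in 0. Order against the nearest neighbours was not stable, since miR-378 was above miR-126-3p in 4 libraries and miR-22 in 2. The neighbours of miR-126-5p were miR-203 at 14488, the leukocyte miRNA miR-146a at 14038, miR-24 at 12008 and miR-199a-3p, a stellate cell miRNA, at 10921 normalised reads. They were above miR-126-5p in 9, 7, 7 and 3 libraries. The order in the table is one of reads, not of molecules.

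The arm ratio, 3p reads per 5p read in the same library, is also free of the scaling between libraries. It was 5.32, 13.7, 12.8, 11.7 and 11.4 in control replicates 1 to 5. In mutant replicates 1 to 5 it was 8.96, 10.7, 10.1, 12.8 and 12.4. The 3p arm was the more abundant one in all 10 libraries, and replicate 1 had the lowest ratio of each group. Control replicate 1 was below every other library of either genotype.

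On the log2 scale the ratio was 3.38 ± 0.55 in controls and 3.45 ± 0.21 in mutants (SD over 5 libraries each), or 10.4 and 10.9 as geometric means. The difference was 0.06 ± 0.27 (SE), with an exact permutation p of 0.921 and 0.968 after adjustment over the 7 exact tests. Without control replicate 1 the difference changed sign, to -0.18 (exact permutation p = 0.183), and without both replicates 1 it was -0.11 (exact permutation p = 0.314). No difference beyond the spread was detected in either setting.

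**Figure D2:**
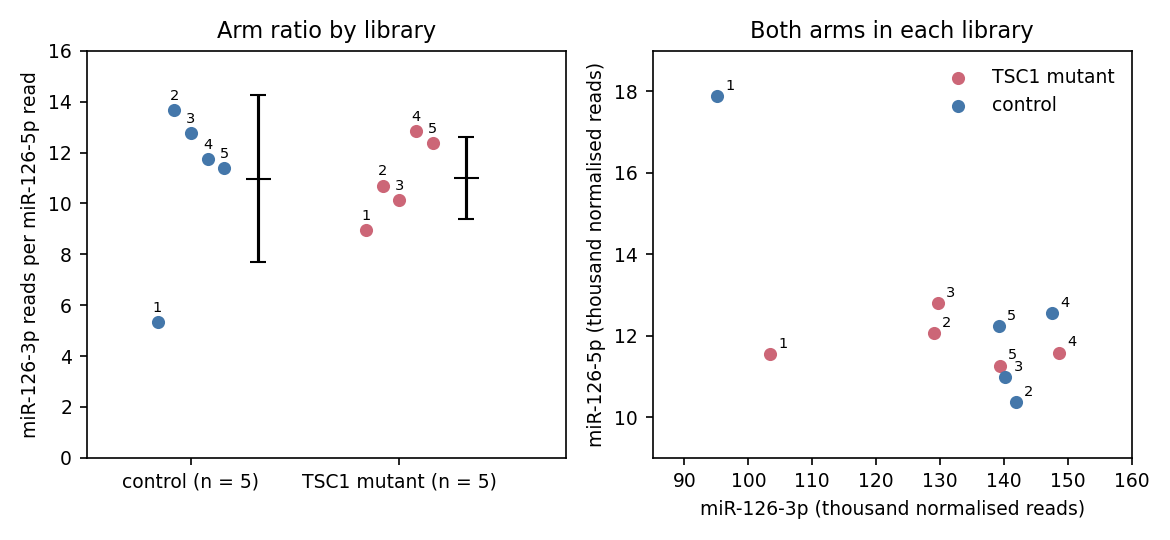
The left panel plots the reads of miR-126-3p per read of miR-126-5p in each library by genotype, with bars for the mean ± SD of 5, and the right panel plots the arms against each other in normalised reads, with axes that do not start at 0. Control replicate 1, at a ratio of 5.32, lies away from the other 9 libraries, which lie between 8.96 and 13.7.

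Both arms together summed to 145590 ± 18573 normalised reads for controls and 141848 ± 16902 for mutants (SD over 5 libraries each). Of that sum the 3p arm held 90.8 ± 3.75% and 91.5 ± 1.15%. In control replicate 1 it held 84.2%, with a 95% exact binomial interval from 84.0 to 84.4%, and in TSC1 mutant replicate 1 it held 90.0%, with an interval from 89.8 to 90.1%. The highest share was 93.2%, in control replicate 2. The sum in control replicate 1, 113035 normalised reads, was the lowest of the 10 libraries, so the high 5p value there did not make up for the low 3p value.

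Across the 10 libraries the arms, which share a scaling factor in each library, showed no positive correlation. Pearson's r of their log2 values was -0.68 (permutation p = 0.0502) and Spearman's rho was -0.41 (permutation p = 0.247). The 2 libraries farthest from the median of the 3p arm were the replicates 1. Without them r was -0.31 (permutation p = 0.459) and rho was -0.33, so the relation did not hold without them. With the genotype means removed r was -0.71 (permutation p = 0.0348) and rho was -0.47 (permutation p = 0.180). With single libraries left out, r ranged from -0.89 without TSC1 mutant replicate 1 to -0.07 without control replicate 1. The relation therefore rested on control replicate 1. No adjustment was made over these settings of 1 relation.

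The table holds both arms of 25 hairpins, which allowed the arm ratio of miR-126 to be set beside those of others. Of the 25 ratios, 0 differed between genotypes at a limma adjusted p of 0.05, or 0.0%, and 0 had an unadjusted p below 0.05. In this fit miR-126 was at 0.06 ± 0.27 (SE), with a 95% interval from -0.54 to 0.66 and an adjusted p of 0.912. By the geometric mean of the arm ratio over all libraries, the 3p arm was the higher one in 14 of the 25 hairpins.

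Over the 10 libraries the log2 arm ratio of miR-126 had an SD of 0.40, the 7th smallest of 25, where the median was 0.50. Among the 15 hairpins whose arms both averaged 100 normalised reads or more it was also 7th. The smallest SDs there were those of miR-199a at 0.17, miR-339 at 0.24 and miR-335 at 0.24. The largest were those of miR-511, whose hairpin lies in the macrophage gene Mrc1, at 1.06, miR-345 at 0.85 and miR-423 at 0.78. The ratio of miR-126 was thus not among the most variable ones, although 1 control departed from the rest.

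In control replicate 1 the log2 ratio of miR-126 was -1.21 from the mean of the other controls, the 9th largest departure in size among the 25. Other hairpins departed there in both directions. Control replicate 1 was the lowest control in 10 of the 25 ratios and the highest in 10. The log2 ratio of TSC1 mutant replicate 1 was -0.35 from the mean of the other mutants for miR-126. In 21 of the 25 hairpins, miR-126 included, the ratios of both replicates 1 departed from the rest of their groups in the same direction.

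**Figure D3:**
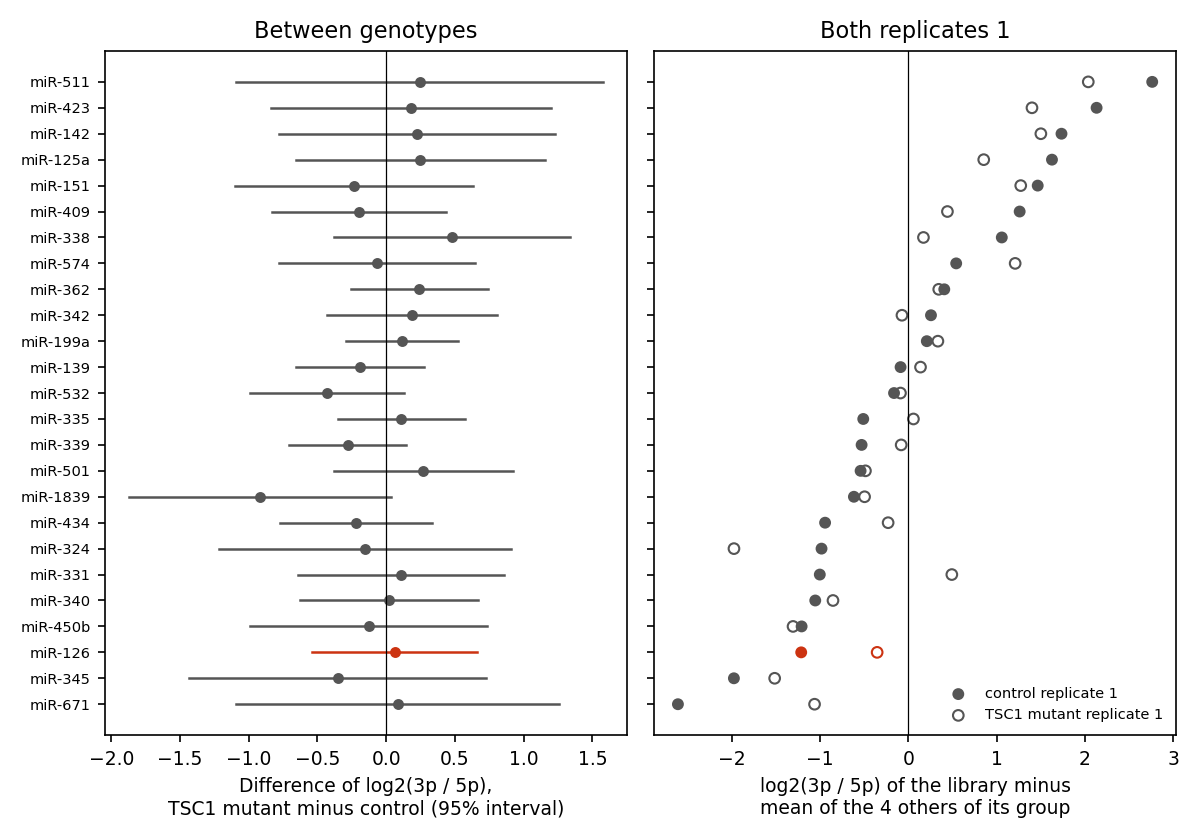
For the 25 hairpins with both arms, the left panel plots the mutant minus control difference of the log2 ratio of 3p to 5p reads with its 95% limma interval, and the right panel plots how far each replicate 1 (filled for control, open for TSC1 mutant) lay from the mean of the other 4 libraries of its group. The interval of miR-126, in red, runs from -0.54 to 0.66, and its replicates 1 lie at -1.21 and -0.35.

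To set the endothelial signal beside that of other cells in the same liver, miR-126-3p was divided by miRNAs known from other cell types. Relative to miR-122 of hepatocytes, miR-126-3p was at 0.0462, 0.0504, 0.0375, 0.0372 and 0.0422 in control replicates 1 to 5. In mutant replicates 1 to 5 it was at 0.0496, 0.0427, 0.0546, 0.050 and 0.0456. The groups overlapped, with the lowest values in control replicates 3 and 4 and the highest in mutant replicate 3, and the replicates 1 were inside their groups. The log2 ratio was -4.56 ± 0.19 in controls and -4.37 ± 0.14 in mutants (SD over 5 libraries each). The difference of 0.19 had an exact permutation p of 0.135, and of 0.944 after adjustment over the 7 exact tests. The difference was 0.22 without control replicate 1 and 0.21 without both replicates 1 (exact permutation p = 0.0952 and 0.143). Without control replicate 2 it was 0.25 (exact permutation p = 0.0476, and 0.333 adjusted). The fold change of miR-122 itself was -0.21 on the log2 scale (limma adjusted p = 0.608). Other hepatocyte miRNAs did not share it, with log2 fold changes of -0.0054 for miR-192, -0.033 for miR-194 and 0.055 for miR-148a, while miR-802 rose. The difference therefore holds for miR-122 only, and ratios to the other hepatocyte miRNAs were not tested.

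Relative to 6 miRNAs of stellate and smooth muscle cells, led by miR-143, the log2 ratio was -0.76 ± 0.56 in controls and -0.44 ± 0.50 in mutants (SD over 5 libraries each). The difference was 0.33, with an exact permutation p of 0.278 and 0.968 adjusted. The difference was 0.18 without control replicate 1 and 0.39 without both replicates 1 (exact permutation p = 0.516 and 0.200). The linear ratio ran from 0.384 to 0.874 in controls and from 0.414 to 1.02 in mutants, with the lowest values in control replicate 2 and in mutant replicate 1. The summed reads of these 6 miRNAs were 231990 ± 81447 for controls and 178427 ± 43642 for mutants, with the highest sum, 369439, in control replicate 2. Of these means miR-143 alone held 209593 and 156399, so the ratio is mainly a ratio to miR-143. Log2 fold changes were -0.39 for miR-143, -0.32 for miR-214, -0.10 for miR-199a-5p and -0.064 for miR-145. They were 0.0095 for miR-199a-3p and 0.0087 for miR-199b.

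Relative to 7 leukocyte miRNAs, led by miR-146a, the log2 ratio was 2.62 ± 0.53 in controls and 2.73 ± 0.30 in mutants (SD over 5 libraries each). The difference was 0.11 (exact permutation p = 0.690, and 0.968 adjusted). It changed sign without control replicate 1, to -0.12 (exact permutation p = 0.643), and was 0.011 without both replicates 1 (exact permutation p = 0.886). The linear ratio was 3.24 in control replicate 1 against 6.59 to 8.36 in the other controls, and 4.58 in mutant replicate 1 against 6.94 to 7.68 in the other mutants. The leukocyte sum was highest in the same libraries, at 29326 normalised reads in control replicate 1 and 22575 in mutant replicate 1, where the group means were 21690 and 19613.

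Relative to 3 erythroid miRNAs, led by miR-486, the log2 ratio was 4.72 ± 0.45 in controls and 4.68 ± 0.42 in mutants (SD over 5 libraries each), a difference of -0.04 (exact permutation p = 0.865, and 0.968 adjusted). The difference was -0.22 without control replicate 1 and -0.10 without both replicates 1 (exact permutation p = 0.349 and 0.600). The linear ratio was lowest in the replicates 1, at 16.1 in the control and 18.5 in the mutant. In none of the 4 ratios was a difference between genotypes beyond the spread detected. Of these 4, the direction relative to miR-122 and to the stellate and smooth muscle miRNAs was the same with each single library left out, and that of the other two was not.

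**Figure D4:**
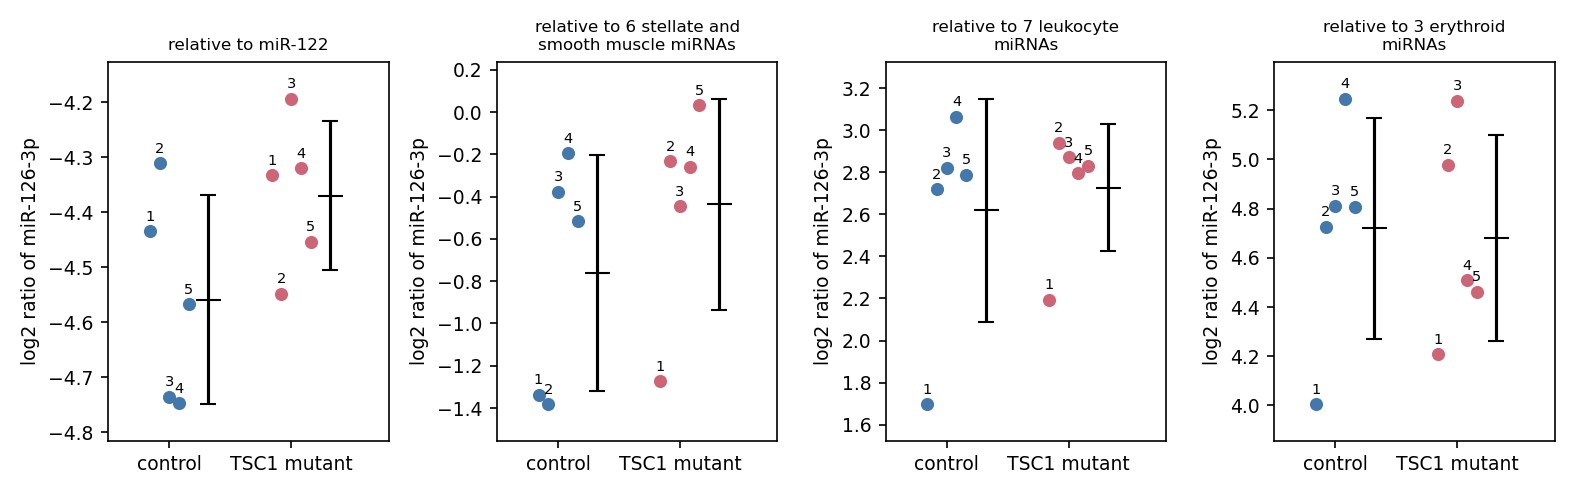
The log2 ratio of miR-126-3p to miR-122 and to the summed stellate and smooth muscle, leukocyte and erythroid miRNAs in each library by genotype, with bars for the mean ± SD of 5. The groups overlap in all 4 panels, and both replicates 1 are the lowest of their groups relative to the leukocyte and erythroid miRNAs.

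Of the cell type lists themselves, 1 of 5 hepatocyte miRNAs rose, miR-802 at a log2 fold change of 1.72 (limma adjusted p = 0.000258), and no other cell type list had a member past the threshold, where 13.0% of all miRNAs were called. The medians were -0.01 for hepatocyte, -0.08 for stellate and smooth muscle, -0.21 for leukocyte, 0.11 for erythroid, -0.74 for 5 biliary epithelial and -1.27 for 3 striated muscle miRNAs. The biliary epithelial and striated muscle medians moved with control replicate 2 and were -0.15 and -0.50 without it. The biliary epithelial sum was 35789 normalised reads in that library against 4996 to 6088 in the other controls, and the striated muscle sum was 5638 against 268 to 559. With control replicate 1 left out, the leukocyte median was -0.07, the erythroid one 0.22 and the stellate and smooth muscle one -0.0020. The log2 fold changes of the most abundant members were -0.39 for miR-143, -0.21 for miR-146a, 0.11 for miR-486, -0.68 for miR-200b and -1.27 for miR-1a, with limma adjusted p between 0.424 and 0.951.

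Other miRNAs known from the biology of vessels were taken as a list of 22 names, of which 21 matched 24 rows of the table. These miRNAs are not made by endothelial cells alone. The list shares 2 rows with the stellate and smooth muscle list and 1 with the leukocyte list. Of the 24, 0 rose and 0 fell in mutants by limma, and 3 had an unadjusted p below 0.05, where 64 of all 285 did. The median log2 fold change was -0.09, against -0.06 over all miRNAs. In the list 6 members were above 0 and 18 below, where 121 of all 285 miRNAs were above 0 and 164 below.

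The most abundant of the list was miR-27b, which is known to act in vessel sprouting, at 103600 ± 11450 normalised reads for controls and 100743 ± 7559 for mutants (SD over 5 libraries each), a log2 fold change of -0.04. The next were miR-10a, which restrains inflammation in endothelial cells, at -0.08, miR-92a, a repressor of angiogenesis, at -0.47 and miR-100, which targets mTOR, at -0.26 on the log2 scale. Their limma adjusted p lay between 0.338 and 0.948. The highest fold changes were those of the hypoxia-induced miR-210 at 0.96 (limma adjusted p = 0.166) and of miR-155, an inflammatory miRNA, at 0.49 (limma adjusted p = 0.338). The lowest were those of miR-218, known to act with Slit and Robo genes, at -0.63 (limma adjusted p = 0.584) and of miR-222, which represses Kit in endothelial cells, at -0.55 (limma adjusted p = 0.110).

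For miR-210 the level was 251 ± 172 for controls and 458 ± 228 normalised reads for mutants, and for miR-222 it was 4276 ± 1086 and 2886 ± 542 (SD over 5 libraries each). Groups did not overlap in 1 of the 24, miR-181b, at 455 ± 44.8 in controls and 368 ± 15.4 normalised reads in mutants, with a limma adjusted p of 0.205, where 12.6% of all miRNAs did not overlap. This one is named after its values were seen. The count of calls in the list depended on control replicate 1. Without it 3 members passed, with log2 fold changes of 1.29 for miR-210, -0.68 for miR-222 and -0.73 for miR-92a (limma adjusted p between 0.00948 and 0.0212), where 44 of all 285 miRNAs, or 15.4%, were called. In the same setting miR-126-3p and miR-126-5p did not pass.

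The miRNAs whose pattern was most like that of each arm were found from the SD of their log2 ratio to that arm over the 10 libraries, a measure free of scaling, among 183 other miRNAs that averaged 100 normalised reads or more. For miR-126-3p the closest were miR-25 at an SD of 0.061, miR-361 at 0.094, miR-27a at 0.12 and miR-27b at 0.12, where the median was 0.46. The related miR-27a and miR-27b may share reads. The value of miR-25 was 14500, 20577, 21260, 22163 and 20153 normalised reads in control replicates 1 to 5. It was 14644, 19078, 17390, 22477 and 21462 in mutant replicates 1 to 5. Both replicates 1 were low, as they were for miR-126-3p.

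For miR-126-5p the closest were miR-17 at 0.13, miR-93 at 0.14, miR-339-5p at 0.15 and miR-30b at 0.16, where the median was 0.46. The value of miR-17 was 2564, 1544, 1586, 1770 and 1553 normalised reads in control replicates 1 to 5. It was 1885, 1499, 1589, 1665 and 1544 in mutant replicates 1 to 5. Like miR-126-5p, it was highest in control replicate 1. The other arm of miR-126 was far down both orders, at an SD of 0.40, as the 73rd closest to miR-126-3p and the 75th closest to miR-126-5p.

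Without control replicate 1 the SD between the arms was 0.19, the 22nd and 29th smallest. Then miR-25 was still the closest to miR-126-3p, while miR-17 was the 7th closest to miR-126-5p and miR-93 the 15th. Their own SDs hardly moved, to 0.132 for miR-17 and 0.153 for miR-93, where the median was 0.371, so their order changed because others came closer. The orders are a description of these libraries, and no test was made on them.

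**Figure D5:**
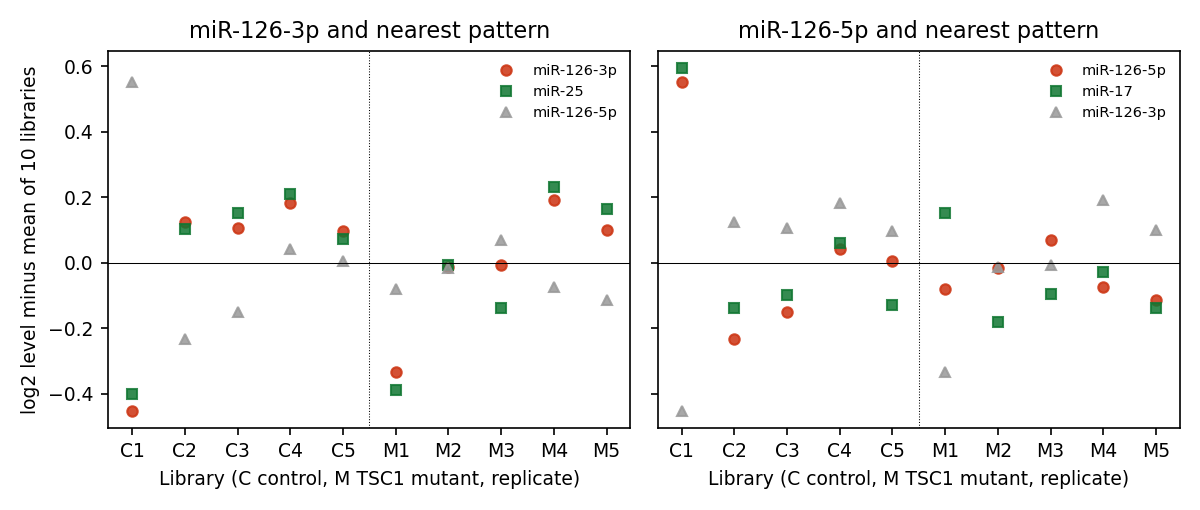
The log2 level minus its mean over the 10 libraries (vertical axis) by library for miR-126-3p with miR-25 on the left and miR-126-5p with miR-17 on the right, with the other arm in grey. The replicates 1 are low for miR-126-3p and miR-25, and control replicate 1 is high for miR-126-5p and miR-17.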

How the data were processed

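Small RNA libraries from total RNA of mouse liver were read on an Illumina HiSeq-2500, per the labels' protocols. The deposited values are a normalised signal made by the authors, with DESeq named without a version per the submitters' processing notes. The aligner, annotation and genome build were not given in the sources used here. What 1 read is worth was 0.711 to 1.68 normalised reads by library, and 100% of values were whole multiples of it with a tolerance of 0.001. Too few low values are listed per library for a stricter check of this step, so reads are estimates. Division by it gave the reads and their binomial intervals, which cover counting error only, since reads without molecular identifiers are not independent molecules. Groups and replicate numbers were taken from the labels. No pair of the 45 library pairs agreed within sampling noise.

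Log2(normalised reads + 1) was compared with limma 3.58.1 in R 4.3.3, with an intensity trend for miRNAs and without it for arm ratios, and Benjamini-Hochberg adjustment at 0.05. A mean of at least 5 normalised reads was required, which all 285 miRNAs met. Single values were compared by 2-sided exact permutation over 252 splits. The fit was tested on simulated data. Binomial intervals and permutation tests used scipy 1.17.1, the fold used RNAfold 2.7.2, and figures used matplotlib 3.10.9. Sequences were matched by name to RefSeq, where 239 of 285 names had a mature entry.

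The members, lists and tests were chosen with earlier results of these data known. Named by rule were both arms, the 4 most abundant and the 2 highest and 2 lowest fold changes of the vessel list, 2 neighbours on each side of each arm by mean, the 4 closest patterns to each arm, the leading member of each cell type list, and the 3 least and 3 most variable arm ratios. The alternatives were other pseudocounts, filters, scalings, limma settings, a replicate block and left-out libraries. Added after the data were seen were voom on whole reads, the counts of the vessel list in each setting, the medians of the cell type lists without control replicates 1 and 2 in turn, and other settings of the correlation of the arms.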

Additional observations from a re-analysis of the deposited data

Results flagged for a closer look

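A single library was far from its group, by the gap to the nearest of the other 4, in 5 of 18 sets of values, where chance flags about 1 in 20 groups, or 0.9 here. The values overlap in the libraries and miRNAs they use, so the 5 are not separate events.

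For miR-126-3p, 95159 normalised reads in control replicate 1 lay below the 139192 to 147555 of the other 4 controls. The same library had the lowest log2 arm ratio for miR-126, at 2.41 against 3.51 to 3.77. For the share of miR-126-5p among listed miRNA reads it was the highest control, at 0.210% against 0.106 to 0.125%. The log2 ratio of miR-126-3p to the leukocyte miRNAs was lowest among controls in the same library, at 1.70 against 2.72 to 3.06. The same ratio was lowest among mutants in TSC1 mutant replicate 1, at 2.19 against 2.79 to 2.94. The normalised reads of miR-126-5p in control replicate 1 fell just short of the limit, with a gap of 0.708 of the range of the controls against a limit of 0.71.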

How the results depend on the processing

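The arms of miR-126, the arm ratio, both shares and the 4 cell type ratios passed the threshold in no alternative run. Their adjusted p was never below 0.333. For the exact permutation tests this outcome was largely set by the number of libraries. The smallest possible p was 0.00794 with all libraries and 0.0286 without both replicates 1. A lone test at either value would not have passed 0.05 after adjustment over the exact tests. Not passing is therefore no measure of the stability of the arm ratio, share and cell type results. Directions near 0 were not stable. The log2 fold change of miR-126-3p was 0.022 with scaling to library totals and 0.0092 with upper quartile scaling, and that of miR-126-5p was 0.050 without both replicates 1 and 0.019 with array weights, which were lowest for control replicate 1 (0.179). Without both replicates 1 the arm ratio difference was -0.11 and that of the 5p share was 0.0113 percentage points. With miR-122 left out of the total, the 3p share difference was -0.0817 percentage points. With each library left out in turn the ranges were -0.14 to 0.056 for miR-126-3p, -0.16 to 0.041 for miR-126-5p, -0.18 to 0.16 for the arm ratio, -0.0487 to 0.0898 for the 3p share, -0.0151 to 0.0107 for the 5p share, -0.12 to 0.24 relative to leukocyte and -0.22 to 0.091 relative to erythroid miRNAs. Relative to miR-122 the range was 0.14 to 0.25 with a lowest unadjusted exact p of 0.0476, and relative to stellate and smooth muscle miRNAs it was 0.17 to 0.54. The number of miRNAs called was 22 with a filter at a mean of 100, where fewer were tested, 63 with array weights, and 30 to 44 with each library left out, against 37. In the vessel list of 24 it was 4 with array weights, where 63 of all 285 miRNAs were called. Without both replicates 1 it was 3 in that list, where 46 of all 285 were called. It was 0 to 3 in that list with each library left out, against 0 with all libraries. Where not stated, the cause was not tested. Whether the replicate numbers pair the libraries was not settled. Correlations of deviations of libraries with the same number ran from -0.02 to 0.81, and 2 of 5 controls correlated best with their own number. With a replicate block, miR-126-3p was at -0.02 (limma adjusted p = 0.884), miR-126-5p at -0.09 (limma adjusted p = 0.757), 45 miRNAs were called in all, 1 in the vessel list and 0 of the arm ratios. Count models and a scaling that need deposited counts were planned but not run, because too few low values are listed to check the recovered reads strictly. The added voom, which rests on the same reads, called 37. Groups of 5 libraries limit these results: the interval of each arm's fold change was -0.35 to 0.30 for 3p and -0.41 to 0.24 for 5p on the log2 scale.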
